A study of Drosophila melanogaster with 3 samples.

Results

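The regions described here are the binding sites of the GFP-tagged protein CG13775 at divergent promoters of the Drosophila melanogaster genome, where 2 protein-coding genes on opposite strands start back to back. They were chosen from the optimal list, the set of peaks that passed the authors' reproducibility threshold, by position alone. A peak was kept if its summit lay within 500 bp of a protein-coding transcript start that had, within 1000 bp upstream, the start of another protein-coding gene on the opposite strand. Of 5862 peaks, 1434 (24.5%) met this rule. Of the others, 1549 lay within 500 bp of a protein-coding start without such a partner (called unidirectional below), 154 near noncoding starts only and 2725 farther than 500 bp from any start (called distal). The data are chromatin immunoprecipitations with an anti-GFP antibody from whole embryos, 0 to 24 h old and of both sexes, of a transgenic line that stably expresses CG13775 with enhanced GFP at its C terminus. All 3 libraries, biological replicates 1, 2 and 4, belong to this 1 group. They average over all embryonic tissues and stages, and the labels do not say whether the replicates came from separate crosses. The labels point to a possible control experiment, which is not analysed here. What these promoters would give in an input sample or an untagged line was therefore not measured.

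Divergent promoters are common in the compact fly genome, and many of them serve housekeeping genes. Such promoters often carry the DNA replication-related element (DRE), the word read by the factor Dref and overlapping the one read by the boundary protein BEAF-32, or the core promoter element motif 1, read by M1BP. The stretch between the paired starts is typically kept free of nucleosomes, and a factor bound there is close to both genes, so a peak alone does not assign it to either of them. CG13775 itself is a predicted gene on chromosome arm 2L, and no function is assumed for its protein here.

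The DNA between the paired starts of 7 members shows the range of these promoters. The sequences run 5′ to 3′ on the plus strand, from the base after the minus-strand gene's start to the base before the plus-strand gene's start, and are from RefSeq Release 6 (the dm6 build). Capitals mark the DRE word TATCGATA, its core CGATA (or TATCG on the other strand), the motif 1 word GGTCACAC (GTGTGACC on the other strand) and the word TGCGGATG, which an earlier analysis of these data had singled out. CG13775/CG3430 is chr2L:6956951-6957007, Cog7/CG42557 is chr3R:29933058-29933286 and Taf11/und is chr2L:9763263-9763368, all 3 among the members of highest signal. Gas41/SA1 is chr2L:6950208-6950420, a strongly occupied gap without any of these words. Atat/Shc is chr3L:9426759-9427009 and RpL34a/Trmt61 is chr3R:26059268-26059495, which show DRE words close to a start. Ripalpha/RpL7 is chr2L:10200975-10201003, one of the shortest gaps, with a motif 1 word.
CG13775/CG3430: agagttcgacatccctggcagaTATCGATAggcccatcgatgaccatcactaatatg
Cog7/CG42557: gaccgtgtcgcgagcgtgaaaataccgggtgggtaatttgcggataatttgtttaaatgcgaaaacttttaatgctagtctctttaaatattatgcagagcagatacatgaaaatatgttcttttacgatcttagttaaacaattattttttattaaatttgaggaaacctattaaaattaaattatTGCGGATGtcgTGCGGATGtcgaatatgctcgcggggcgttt
Taf11/und: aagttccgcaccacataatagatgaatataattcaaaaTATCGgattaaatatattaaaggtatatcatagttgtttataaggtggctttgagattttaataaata
Gas41/SA1: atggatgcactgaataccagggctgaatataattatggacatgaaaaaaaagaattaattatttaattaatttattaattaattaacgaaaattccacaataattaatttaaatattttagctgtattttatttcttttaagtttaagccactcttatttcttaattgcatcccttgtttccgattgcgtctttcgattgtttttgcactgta
Atat/Shc: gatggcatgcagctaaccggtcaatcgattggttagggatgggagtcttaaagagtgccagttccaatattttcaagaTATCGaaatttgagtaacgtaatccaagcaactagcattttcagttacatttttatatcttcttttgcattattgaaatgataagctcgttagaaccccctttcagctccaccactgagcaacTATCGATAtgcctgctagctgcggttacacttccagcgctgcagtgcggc
RpL34a/Trmt61: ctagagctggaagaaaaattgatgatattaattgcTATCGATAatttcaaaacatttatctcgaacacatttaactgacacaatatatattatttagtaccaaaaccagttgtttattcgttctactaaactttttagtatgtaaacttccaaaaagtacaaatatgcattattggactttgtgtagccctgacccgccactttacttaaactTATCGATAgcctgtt
Ripalpha/RpL7: cccactccgcggccaGTGTGACCgtttgg

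The deposited lists hold called regions with a signal value from the authors' peak caller and no reads, so the depth of each library is unknown. Intervals below are exact (Clopper-Pearson) 95% intervals, which cover counting error over peaks, pairs or genes only, and neighbouring peaks are not independent. A single summit can also count for several pairs or genes, which the intervals treat as separate. Values were repeated in the list of each replicate, restricted to its 5862 regions of highest signal, and are given as mean ± SD over these 3 lists. With 3 replicates, the exact two-sided sign-flip permutation test cannot give a p below 0.25, so no comparison here can pass 0.05.

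Genes in divergent pairs had a summit at their start more often than other protein-coding genes. Of 5052 divergent genes, 2445 (48.4%, interval 47 to 49.8) were occupied, meaning that an optimal summit lay within 500 bp of one of their starts, against 1213 of 8916 unidirectional genes (13.6%, interval 12.9 to 14.3). Over all 13968 protein-coding genes the share was 26.2%. In the replicate lists the shares were 47.5% ± 2.35 for divergent genes and 13.7% ± 0.659 for unidirectional genes (SD, n = 3). The difference of 33.8 percentage points ± 1.69 had the same sign in 3 of 3 replicates (exact sign-flip permutation p = 0.25, the smallest 3 replicates can give). One summit can count for both genes of a pair, so the comparison was repeated with a gene counted only if a summit lay nearer to its own start than to that of any other protein-coding gene. By that measure 1516 divergent genes (30%, interval 28.7 to 31.3) were occupied, against 1205 unidirectional genes (13.5%), with 19.5% over all protein-coding genes. The replicate lists gave 29.5% ± 1.63 for divergent genes and 13.6% ± 0.64 for unidirectional genes, a difference of 15.9 points ± 0.993 (exact sign-flip permutation p = 0.25). Divergent genes thus stood above unidirectional genes by much more than the spread between replicates on both measures.

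Summits were dense in the DNA between paired starts. This DNA covered 881706 bases and held 1067 optimal summits, or 12.1 per 10 kb (11.7 ± 0.521 over the replicate lists). The 500 bp upstream of unidirectional starts held 2.12 summits per 10 kb (2.14 ± 0.0728), and the chromosome arms as a whole 0.426.

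Of the 2667 head-to-head gene pairs of the genome, 1305 (48.9%) had an optimal summit within 500 bp of either start or between the starts. The replicate lists of replicates 1, 2 and 4 gave 46.3%, 47.1% and 50.8%, and 1046 pairs were occupied in the optimal list and in every replicate list. Of the 1362 pairs without an optimal summit, 866 (63.6%) had a region in the relaxed list of the pooled libraries, which also holds background regions, and 496 pairs had none. The members fell on 1209 pairs by the nearest start, with 2406 genes. Most of these pairs (988) had 1 peak, 217 had 2 and 4 had 3. In the other direction, 103 peaks had several qualifying pairs. The extreme was a peak at the many small annotated units of the pre-mod(mdg4) locus on 3R, with 21 pairs and a signal of 1169.

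The share of occupied pairs depended on the gap between the starts, with a step near 200 bp. Gap ranges include their upper bound and not their lower one, apart from 1 bp. Among pairs with gaps of 1 to 100 bp, 164 of 429 (38.2%) had a summit, and among gaps of 100 to 200 bp 145 of 357 (40.6%). Gaps of 200 to 300 bp had the highest share, 351 of 542 (64.8%, interval 60.6 to 68.8). The share was 57.6% (384 of 667) for 300 to 500 bp and 38.8% (261 of 672) for 500 to 1000 bp. In bins of 50 bp the optimal list gave 36.2% for 150 to 200 bp and 66.1% for 200 to 250 bp. The same neighbouring bins gave 34.2% and 61.6% in replicate 1, 35.6% and 61.6% in replicate 2, and 37.6% and 67.4% in replicate 4. Over wider ranges, gaps of 200 to 500 bp were occupied in 59.5% ± 2.96 of cases, gaps of 1 to 200 bp in 38.7% ± 5.29 and gaps of 500 to 1000 bp in 38.4% ± 1.72 (SD, n = 3). The middle range did not overlap either of the others in any replicate.

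**Figure D1:**
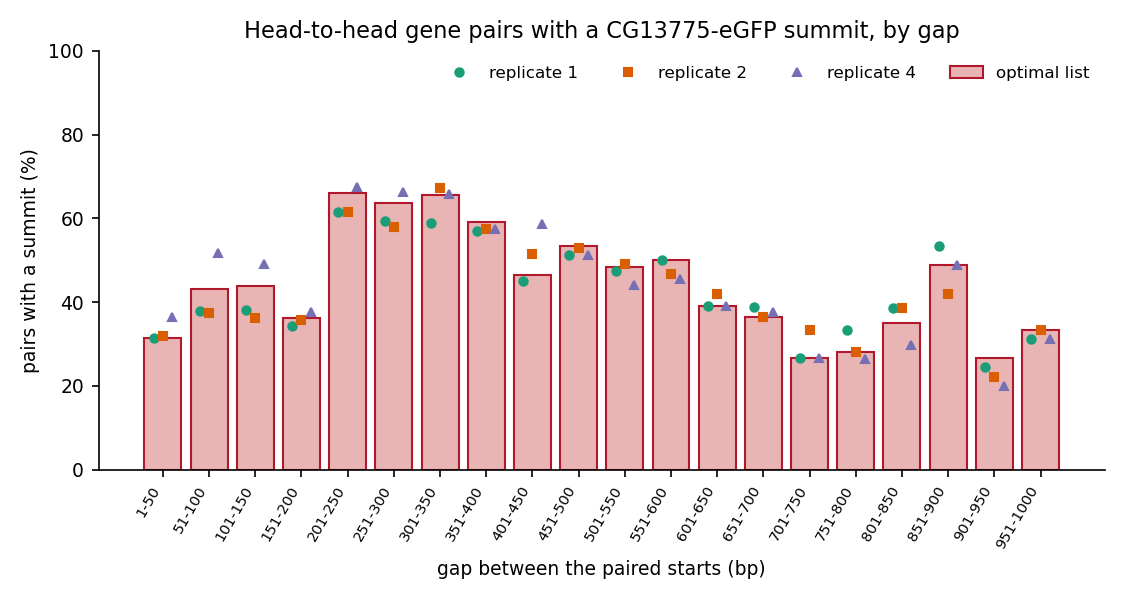
Share of head-to-head gene pairs with a summit (y axis, %) by the gap between the paired starts (x axis, bp, bins of 50 bp), in the optimal list (bars) and in the restricted lists of replicates 1, 2 and 4 (points). All lists step up between 150 to 200 bp (36.2% in the optimal list) and 200 to 250 bp (66.1%).

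The step was not present in the same form in the relaxed pooled list. There, 86.9% of pairs with gaps of 1 to 100 bp had a region, against 71.4% for 100 to 200 bp, 86.7% for 200 to 300 bp, 85.2% for 300 to 500 bp and 75.1% for 500 to 1000 bp. Occupied and unoccupied pairs had like median gaps overall (299 bp and 306 bp), with a lower occupied share at both ends of the range. The median gap over the members was 324 bp (quartiles 236 and 481 bp), and gaps spanned 8 to 999 bp.

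Summits lay between the paired starts in most members. Of 1434, 1159 (80.8%, interval 78.7 to 82.8) were between the starts of their nearest pair, and the replicate lists gave 81.7%, 80.7% and 76.9% for replicates 1, 2 and 4. Both starts were within 500 bp of the summit in 1250 members (87.2%). The median summit was 79.5 bp upstream of the nearest coding start (median offset -79.5, quartiles -129 and -24, negative values upstream), against a median offset of -156 bp (quartiles -272 and -42) for unidirectional peaks. The median offsets over the replicate lists were -79.7 ± 7.51 bp at divergent promoters and -152 ± 14.1 bp at unidirectional promoters. The gap limits how far a summit between paired starts can be from the nearer one. Unidirectional summits were limited only by the 500 bp of the rule, so the offsets of the 2 classes are not directly comparable. The share of summits upstream of the nearest start was alike, at 81.9% and 82%. The nearest start was on the plus strand in 795 members and on the minus strand in 639.

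The position of the summit relative to the starts differed between gap ranges. At gaps of 200 to 300 bp, 86.9% of 375 summits were between the starts, at a median of 47.5 bp from the middle of the gap and with a median offset of -77 bp from the nearest start. At gaps of 500 to 1000 bp, 88.3% of 324 summits were between the starts, and the median distance to the middle was 196 bp. For summits between the starts, the gap itself bounds the distances to the middle and to the nearest start. At gaps of 1 to 100 bp, 27% of 122 summits were between the starts, and 71.3% lay at or downstream of the nearest start, with a median offset of 39 bp. The 3 replicate lists gave 22.6%, 14.7% and 28.5% between the starts in this range, and 88.3%, 87.2% and 84.5% at 200 to 300 bp. The rule admitted summits up to 500 bp from a start, so a short gap is a small part of the span searched. The share between the starts is therefore tied to the gap length. Whether placement within that span changes with the gap was not tested.

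**Figure D2:**
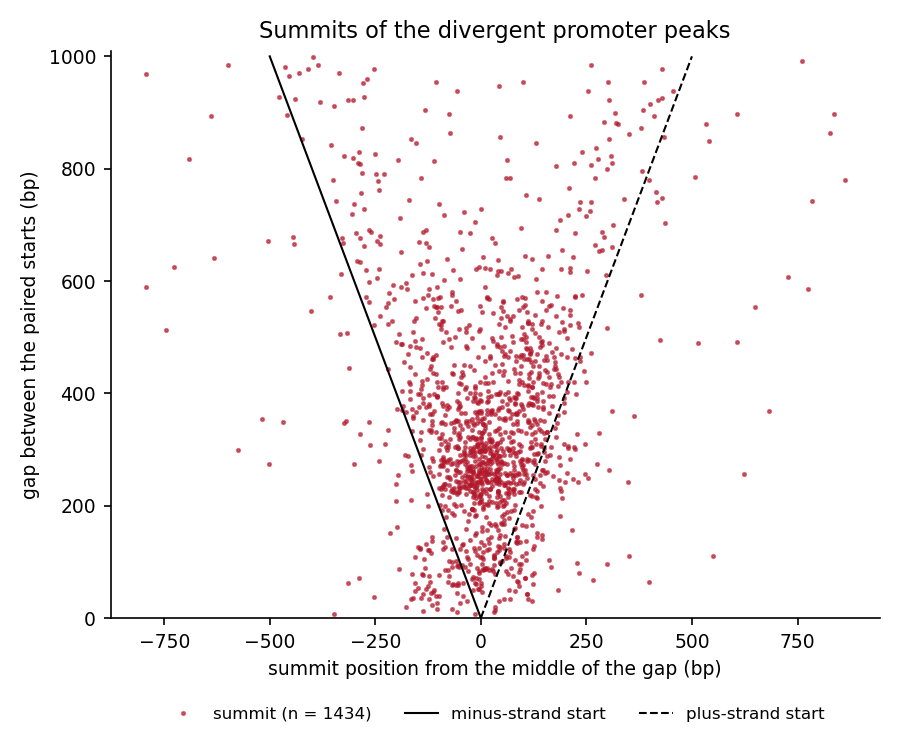
Position of each of the 1434 summits from the middle of the gap (x axis, bp, negative towards the minus-strand gene) against the gap between the paired starts (y axis, bp). The solid and dashed lines are the minus-strand and plus-strand starts. Summits cluster between the lines at gaps of 200 to 300 bp, where 86.9% are between the starts, and spread to both sides of the lines at gaps of 1 to 100 bp, where 27% are. The lines are closer together at short gaps, while the rule admits summits up to 500 bp from a start in every range.

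Neighbouring summits were frequent at divergent promoters. Another optimal summit lay within 300 bp of 401 members (28%), against 19.3% of unidirectional and 13.2% of distal peaks. The replicate lists gave 28.6% ± 4.79, 21.3% ± 3.99 and 14.8% ± 3.45. In the 217 pairs with 2 peaks, the summits were a median of 205 bp apart (upper quartile 225 bp) and the median gap was 377 bp. In 154 of these pairs (71%), 1 summit was nearer to each start. No 2 summits of any list were closer than 199 bp, in any class, so these spacings sit at the smallest distance the lists contain. Among members, 51 share their whole interval with another peak and differ in the summit only. Whether such pairs of summits are separate sites was not tested.

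Within each list, divergent promoter peaks had higher signal ranks than unidirectional ones. The signal is the value given by the authors' peak caller, its scale is not stated, and it was compared only within a list, as a percentile in which 100 is the highest. The median percentile was 60.5 at divergent promoters, 52.9 at unidirectional promoters and 44 for distal peaks. Divergent promoters had median percentiles of 61.6, 64.1 and 57.5 in replicates 1, 2 and 4, against 53.5, 53.4 and 48.7 for unidirectional promoters, so the groups did not overlap. The difference was 9.23 ± 1.39 percentile points over the replicates (3 of 3 positive, exact sign-flip permutation p = 0.25). In the deposited units the optimal median was 315 at divergent promoters, 279 at unidirectional promoters and 244 at distal peaks. The upper 10% of the optimal list took in 14.9% of the divergent promoter peaks, 13% of the unidirectional and 5.8% of the distal ones, with 15.3% ± 2.02, 12.8% ± 0.487 and 5.64% ± 0.853 over the replicate lists. Among the upper 2931 peaks of the optimal list by signal the median percentiles were 56.8 for divergent and 55.9 for unidirectional peaks. That set was itself chosen by signal. Quartiles overlapped widely, from 32.7 to 82 for divergent and from 26.6 to 79.2 for unidirectional peaks.

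**Figure D3:**
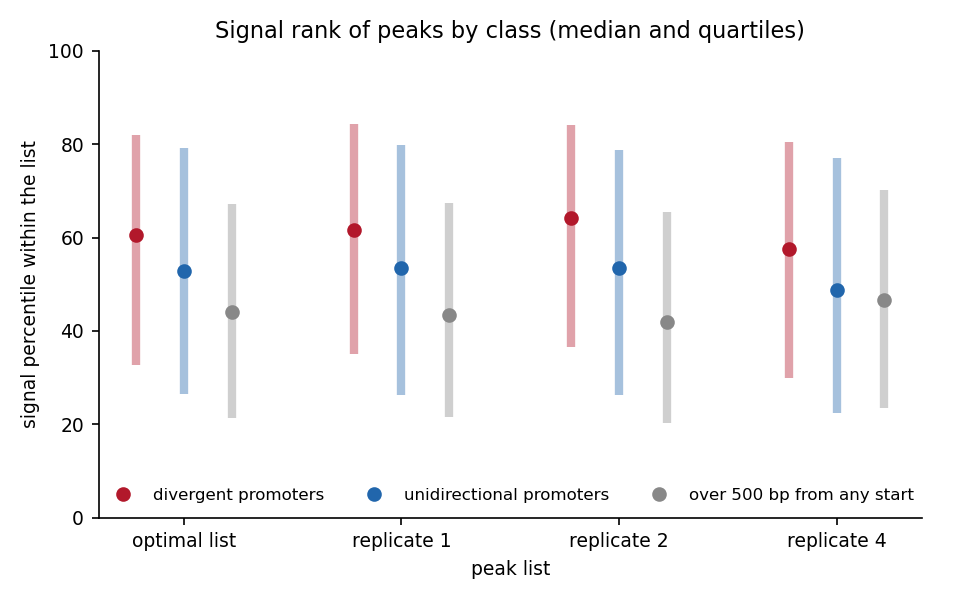
Signal percentile within each list (y axis) for peaks at divergent promoters, unidirectional promoters and over 500 bp from any start, in the optimal list and the restricted lists of replicates 1, 2 and 4 (x axis). Points are medians and bars span the quartiles. The divergent median is the highest of the 3 classes in every list (60.5 in the optimal list), and the quartile ranges overlap.

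Signal followed the gap and the position of the summit. Members with gaps of 200 to 300 bp had the highest median percentile, 68.1, and a median signal of 365. The median percentile was 60.9 for 1 to 100 bp, 48.8 for 100 to 200 bp, 61.3 for 300 to 500 bp and 54.4 for 500 to 1000 bp. Replicates 1, 2 and 4 gave 71.7, 72.7 and 64.6 for 200 to 300 bp, in each case the highest of the 5 ranges. Summits between the starts had a median signal of 325 (n = 1159), against 267 for the 275 summits outside. Restricting both classes to summits 1 to 150 bp upstream of the nearest start, an alternative added after seeing the data, gave median percentiles of 61.2 for 917 divergent and 49.2 for 473 unidirectional peaks, with replicate means of 62.4 ± 2.51 and 48.8 ± 5.16.

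Divergent promoter peaks recurred across replicates. An overlapping region was present in all 3 restricted replicate lists for 1169 members (81.5%, interval 79.4 to 83.5), against 1151 unidirectional peaks (74.3%, interval 72.1 to 76.5) and 68.7% of distal peaks, with 73.3% over all optimal peaks. Since these same libraries gave the optimal list, this describes recurrence and is not an independent check. Overlap was scored on intervals, so a weak summit can take the match of a strong neighbour. Another summit within 300 bp was more frequent at divergent than at unidirectional promoters (28% against 19.3%). Divergent peaks also had higher signal ranks, and the restricted lists were cut by signal. What either adds to the difference between the classes was not tested. No restricted replicate list held a region for 3 members.

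The first and second peaks by signal of the whole optimal list were members. The first lay at the paired starts of CG13775, the gene whose protein was tagged, and CG3430 on 2L, 58 bp apart. Its signal was 35700 in the optimal list and 14369, 8297 and 12917 in replicates 1, 2 and 4, rank 1 in each. The summit (chr2L:6956925-6956925) was 25 bp inside CG13775 and outside the printed gap, and TGCGGATG occurred within 50 bp of it. The line carries an inserted tagged copy of this gene, and what the insertion adds to this signal was not tested. A further member, at Gas41, a YEATS domain protein of chromatin complexes, and SA1, a cohesin subunit, lay within 20 kb and had a signal of 2122. Without the 6 members within 20 kb of the CG13775 start, the median percentile of divergent promoter peaks was 60.4, against 52.9 for unidirectional peaks.

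The second peak lay between Cog7, which codes for a part of the conserved oligomeric complex of the Golgi, and CG42557. Its summit was 49 bp upstream of CG42557 and 181 bp from the Cog7 start, beside the paired TGCGGATG words of the printed sequence. Its signal was 20956 in the optimal list and 8354, 5371 and 7131 in replicates 1, 2 and 4, rank 2 in each. The peak between sturkopf, which encodes a lipid droplet protein, and Herc4, a HECT-type ubiquitin ligase, had a signal of 9698 and rank 4 in each replicate, with values of 3430, 2507 and 3567. From there the signal dropped, and the next member, between the TFIID subunit gene Taf11 and the methionine aminopeptidase gene und, had 3370 (1213, 847 and 1328 in the replicates).

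Further members among the 25 of highest signal had lower values. The peak at Chro, which encodes the interband protein Chromator, and Ssl1, a subunit of TFIIH, had a signal of 3233 and lay 82 bp inside Chro. The peak between Ugalt, a UDP-galactose transporter gene, and eIF2Bbeta, a subunit of the exchange factor for eIF2, had 3000 and sat 54 bp upstream of Ugalt in a gap of 719 bp, 665 bp from eIF2Bbeta. Signals were 2597 between the arginine methyltransferase gene Art3 and the mitochondrial ribosomal protein gene mRpS10, and 2483 between Tcs5, which acts in tRNA modification, and the ESCRT-III gene CHMP2B. The peak between Lon, the mitochondrial protease gene, and PIG-F, which acts in GPI anchor synthesis, had 2307, and mRpL41/CG8079 had 2374.

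The other members named here from the 25 of highest signal spanned 1810 to 2228. They included PNPase/Gprk2 (a mitochondrial RNA nuclease and a G protein-coupled receptor kinase), Hrd3/PTPMT1 (degradation at the endoplasmic reticulum and a mitochondrial phosphatase) and eIF4EHP/CG18428 (a cap-binding repressor of translation). They also included Mkk4/SLIRP2 (a kinase of the JNK pathway), mRpS23/CenG1A, Reps/l(2)gd1, Fbw5/CG9147, Pdrg1/Pal1, CG1602/PIG-G, DUBAI/Tmem18, Pex11ab/CG8320 (a peroxisome protein) and CG13390/CG17294. Atat, an alpha-tubulin acetyltransferase gene, and Shc, an adaptor gene, shared a peak with a signal of 1812 and replicate values of 669, 409 and 743. Of these 25 summits, 20 were between the starts, the median gap was 284 bp, 10 gaps were of 200 to 300 bp and 5 pairs were on 2R. None held TATCGATA or GGTCACAC within 50 bp of the summit, 6 held CGATA and 2 held TGCGGATG. Their lowest rank in any replicate list was 79. Of the 25 peaks of highest signal in the whole optimal list, 11 were divergent promoter peaks.

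**Figure D4:**
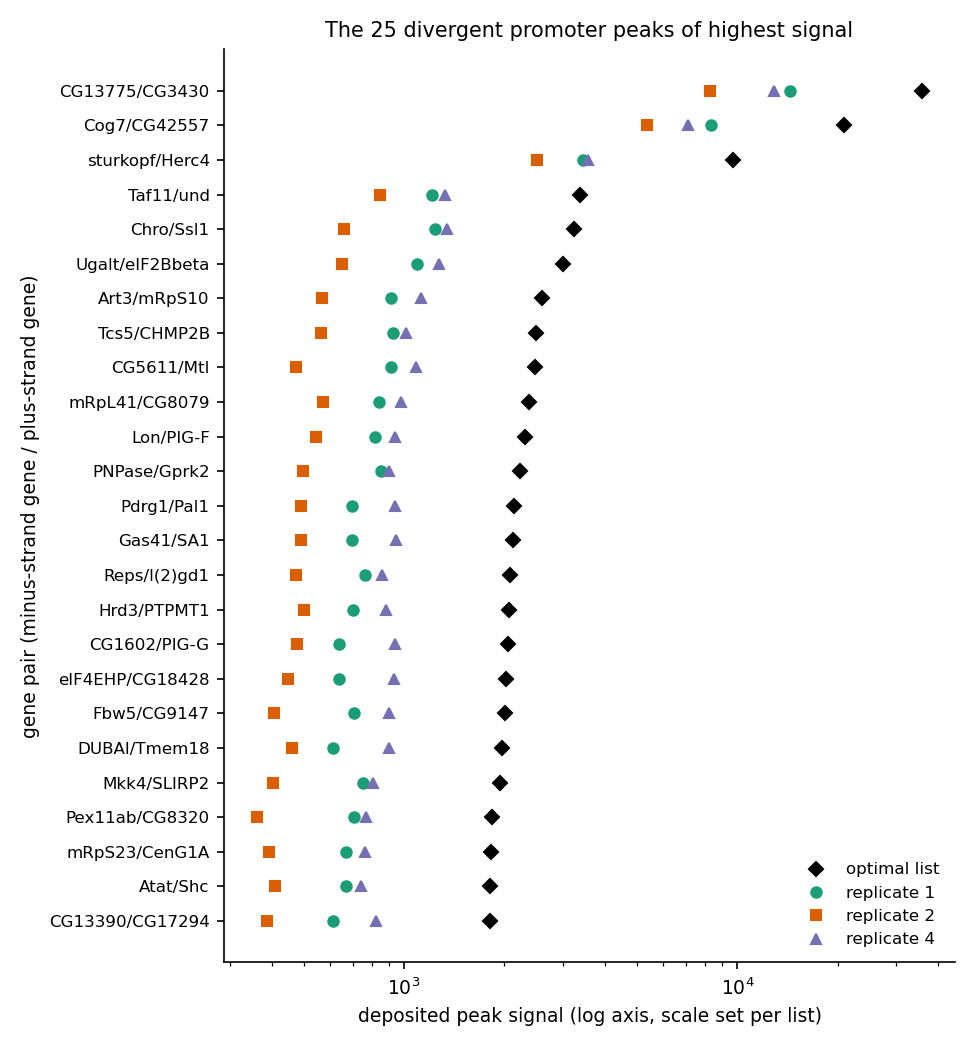
Deposited signal (x axis, log scale) of the 25 divergent promoter peaks of highest signal, named by minus-strand gene and plus-strand gene (y axis), in the optimal list and in replicates 1, 2 and 4. The scale is set separately in each list. The upper 3 pairs keep their order in every replicate, and signals fall steeply from 35700 at CG13775/CG3430 to 3370 at Taf11/und.

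In the optimal list, the DRE word was the 8-letter word whose share differed most between divergent and unidirectional promoter peaks, by a narrow margin over the next words. TATCGATA, sought within 50 bp of the summit (its sequence is the same on both strands), occurred at 88 members (6.14%, interval 4.95 to 7.51) and at 42 unidirectional peaks (2.71%). It occurred in 0.257% of distal peaks and in 0.277% of consecutive windows of the same length over the chromosome arms. The replicate lists gave 5.48% ± 0.612 at divergent and 2.63% ± 0.563 at unidirectional promoters. The words ACTATCGA (4.95% against 1.87%) and ATCGATAG (6.49% against 3.1%) overlap it, and most of the next words by difference held only A and T, such as AATTTAAA (7.88% against 4.52%). This order is that of the optimal list alone. In the replicate lists ATTTTAAA was at 7.77% to 8.14% of divergent and 4.86% to 5.19% of unidirectional summits. The same ranges for TATCGATA were 4.85% to 6.08% and 2.17% to 3.26%. The core CGATA was at 28% of divergent and 19.5% of unidirectional summits, with 26.1% ± 0.988 and 19.6% ± 1.26 over the replicates, 10.4% of distal summits and 11.4% of windows over the arms.

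These differences moved with the position of the summit relative to the start. Among summits 1 to 150 bp upstream of the nearest coding start, TATCGATA was at 68 of 917 divergent peaks (7.42%, interval 5.8 to 9.31) and at 30 of 473 unidirectional peaks (6.34%, interval 4.32 to 8.93). The replicate means were 6.78% ± 0.836 and 6.07% ± 1.15, so the classes were no longer separated beyond the spread between replicates. CGATA likewise was at 33.3% of divergent and 32.1% of unidirectional summits in that range. GGTCACAC, at 2.79% of all divergent and 1.74% of all unidirectional summits, was at 2.94% and 2.75% there.

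The TATA word was more frequent, and the GAGA and initiator words less frequent, at divergent than at unidirectional summits in both settings, with unequal margins. TATAAA was at 23.4% of divergent and 19.3% of unidirectional summits, and at 24.3% and 18% of summits 1 to 150 bp upstream (replicate means 23.7% ± 0.59 and 16.8% ± 0.842). Its share was 23.2% at distal summits, close to the 23.4% at divergent ones, and 11.8% over the arms. A higher share than at unidirectional summits was therefore not particular to divergent promoters. The GAGAG word, part of the GAGA factor's target, was at 6.62% of divergent and 9.81% of unidirectional summits, and at 6.87% and 8.46% of those 1 to 150 bp upstream (6.66% ± 0.64 and 11.3% ± 1.13 over the replicates). The optimal intervals in that range overlapped (5.32 to 8.7 and 6.11 to 11.3). GAGAG was at 10.2% of distal summits and in 11.5% of windows over the arms. The initiator word TCAGT was at 15.5% and 17.9% of all summits, with overlapping intervals, and at 14.3% and 18.8% of those 1 to 150 bp upstream (14.1% ± 0.836 and 17.4% ± 1.09 over the replicates). Over all summits its difference was -2.27, -0.419 and -2.16 percentage points in replicates 1, 2 and 4, and -0.603 with 25 bp windows. TCAGT was at 19.1% of distal summits and in 15.4% of windows over the arms. TGCGGATG was at 8 divergent (0.558%) and 22 unidirectional summits (1.42%), with 2.68% of distal summits and 0.38% over the arms. Of the remaining words, CAGCTG was at 5.65% and 5.04%, CCAAT at 17.4% and 18.2%, GGCAACG at 1.74% and 1.23%, and TGACGTCA at 0.279% and 0.194% of divergent and unidirectional summits. The difference had the same sign in all 3 replicates for 10 of the 11 words, 6 higher and 4 lower at divergent promoters (exact sign-flip permutation p = 0.25 each, adjusted over the words 0.275). For the E-box word CAGCTG, the CCAAT box and the CRE word TGACGTCA the sign changed with narrower windows or among summits 1 to 150 bp upstream. A word match does not show that a factor was bound. The mean GC content of the windows was 34% at divergent, 35.7% at unidirectional and 33.6% at distal summits, against 42.1% over the arms.

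**Figure D5:**
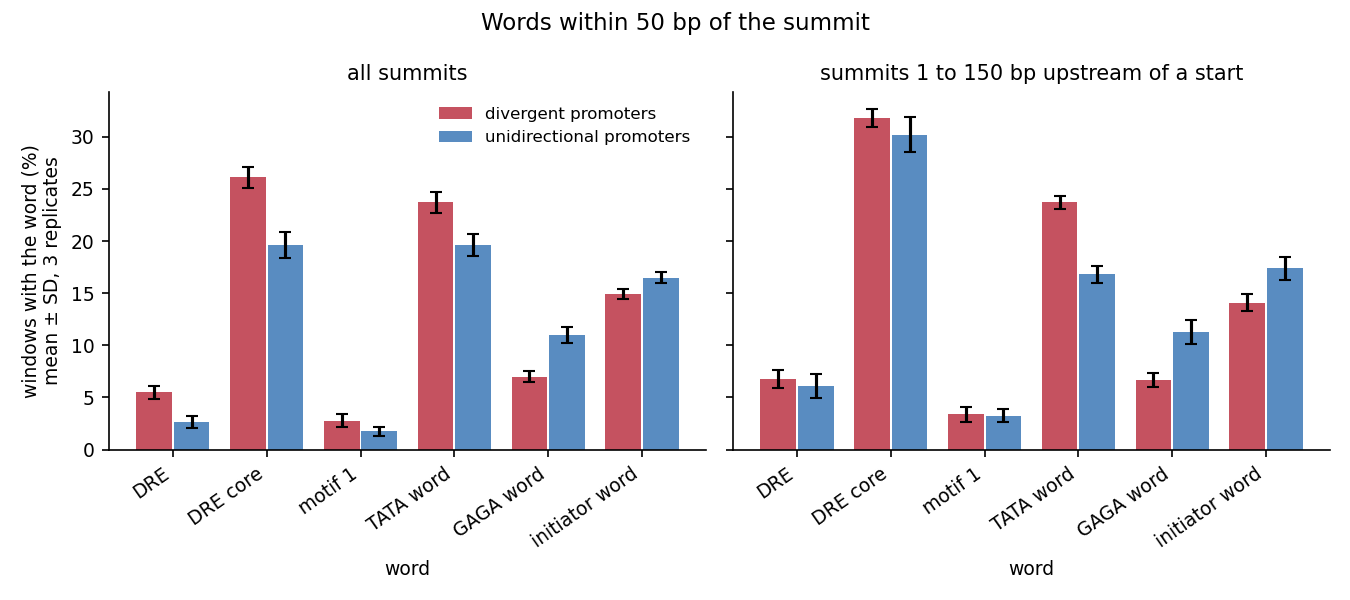
Share of summit windows (50 bp on each side) that hold a word (y axis, %, mean ± SD over 3 replicate lists) at divergent and unidirectional promoters, for all summits (left) and for summits 1 to 150 bp upstream of a coding start (right). The DRE and its core differ between the classes over all summits (5.48% against 2.63% for the DRE) and come close in the right panel (6.78% against 6.07%), while the TATA word stays apart.

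Members with a DRE at the summit were not the ones of highest signal. The 88 members with TATCGATA had a median signal of 262, against 321 for the other 1346. The median was 216 for the 40 members with GGTCACAC, against 321 without it, and 264 with CGATA (n = 401), against 344 without. The 8 members with TGCGGATG had a median of 499, against 314 without it. When present, TATCGATA was a median of 19.5 bp from the summit. Its share was 9.84% at gaps of 1 to 100 bp, 9.42% at 100 to 200 bp, 4.27% at 200 to 300 bp, 5.89% at 300 to 500 bp and 5.86% at 500 to 1000 bp. TATAAA had its lowest share at 1 to 100 bp (12.3%) and its highest at 200 to 300 bp (29.1%).

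Counted over whole gaps instead of summits, pairs with the DRE word between their starts were occupied more often. Of 462 such pairs, 285 (61.7%, interval 57.1 to 66.1) had a summit, against 1014 of 2194 pairs without the word (46.2%, interval 44.1 to 48.3). The replicate lists gave 58.4% ± 4.66 and 45.9% ± 1.95. Pairs with the word had longer gaps (medians 334 and 296 bp), so the shares were also taken within gap ranges. At 1 to 100 bp the shares were 41% with and 37.3% without the word (replicate means 39.9% ± 7.39 and 37.8% ± 5.85), and at 100 to 200 bp 56.8% and 38.3% (47% ± 11.4 and 37.7% ± 3.99). They were 72.7% and 63.2% at 200 to 300 bp (68.2% ± 5.9 and 61.1% ± 3.59), and 67.4% and 54.9% at 300 to 500 bp (64.3% ± 5.32 and 55.4% ± 2.42). At 500 to 1000 bp they were 59.4% and 34% (57.8% ± 0.781 and 33.8% ± 2.3). The share was higher with the word in each range, and the exact intervals overlapped in every range but 500 to 1000 bp. Pairs with GGTCACAC between the starts were occupied in 50.4% of cases, against 48.8% without it.

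The DRE words lay close to a start whether or not the pair was occupied. In the 285 occupied pairs, the word was a median of 31.5 bp from the nearer start (quartiles 17.5 and 51.5), and in the 177 unoccupied pairs 33.5 bp (quartiles 20.5 and 56.5). It was within 100 bp of a start in 91.6% and 92.1% of them. The printed gaps of Atat/Shc and RpL34a/Trmt61 show this placement. The Atat/Shc summit itself was 118 bp from the Atat start and 134 bp from the Shc start.

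Windows of the same length at the middle of the gap, taken in every pair with a gap over 100 bp, also differed in base composition. Their mean GC content was 29% in occupied pairs (n = 1141, SD 9.15 over windows) and 33.9% in unoccupied pairs (n = 1097, SD 9.81). These windows were not matched for gap, on which the occupied share depended, and they come nearer to the starts in shorter gaps. What the gap adds to the difference was not tested.

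Gene lists chosen by symbol, with earlier results of these data known, differed in the share of their divergent genes that had a summit. The lists cover only some of the occupied genes, and a listed gene can count through a summit nearer to its partner. Of all protein-coding genes 36.2% were in divergent pairs, and 48.4% of those had a summit. Cytoplasmic ribosomal protein genes stood highest: 55 of 92 were in divergent pairs and 50 of these (90.9%, replicate mean 89.7% ± 1.05) had a summit, against 28 of the 37 others (75.7%). Their 69 peaks had a median signal of 518. Examples are RpS27/Nup37 with a signal of 1761 and Ripalpha/RpL7 with 1756. The summit was nearest a ribosomal protein gene's own start in 53 of the 69.

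Genes listed as vesicle trafficking by the symbols Vps, Cog, Exo and Sec came next. They include subunits of the COG, exocyst, HOPS and coat complexes, and also other genes such as Sec61alpha. Of 37 in divergent pairs, 32 had a summit (86.5%, replicate mean 81.1% ± 5.41), against 4 of 18 others (22.2%). Besides Cog7/CG42557, the peaks at Fur1/Vps33B (signal 1697) and Sec15/rtet (646) had the highest signal. In 21 of the 36 peaks of this list the summit was nearest a listed gene. Genes of insulator and architectural proteins had summits in 7 of 9 divergent cases, against 3 of 5 others (60%), with a median signal of 945. After Chro/Ssl1 the highest were Cp190/CG4338 (1564) and M1BP/CG8202 (1004), which pair the genes of the insulator protein Cp190 and of the motif 1 binding protein with another gene. Both summits were nearer to the partner, 120 bp from CG4338 (161 bp from Cp190) and 78 bp from CG8202 (315 bp from M1BP). The summit was nearest a listed gene in 2 of the 7 peaks of this list.

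Mitochondrial ribosomal proteins, spliceosomal proteins, the general transcription machinery, tRNA synthetases and translation factors gave intermediate shares. Mitochondrial ribosomal protein genes were in divergent pairs in 58 of 73 cases (79.5%), and 39 of these had a summit (67.2%, replicate mean 64.9% ± 4.98), against 0 of 15 others. In 20 of their 42 peaks the summit was nearest the ribosomal protein gene itself, and in the others nearest another gene. Spliceosomal proteins had summits in 5 of 8 divergent cases (U2af50/PIG-Q with a signal of 955, snRNP-U1-C/gukh with 548 and a DRE at the summit), the general transcription machinery in 27 of 47 (57.4%, elm/MED27 with 1075), tRNA synthetases in 13 of 23 (56.5%, Hem/IleRS with 957, SerRS/CG17260 with 877 and GluProRS/AP-1sigma with 814) and translation factors in 15 of 28 (53.6%, RpL28/eIF1 with 1363 and a DRE at the summit). Outside divergent pairs, a summit was found at 0 of 2 genes of spliceosomal proteins, 6 of 18 of the general transcription machinery (33.3%), 2 of 10 tRNA synthetases (20%) and 8 of 26 translation factors (30.8%). At divergent pairs of these 4 lists, in the same order, the summit was nearest a listed gene in 4 of 6, 15 of 34, 9 of 14 and 14 of 21 peaks.

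Proteasome genes (12 of 26, 46.2%), the respiratory chain and ATP synthase (20 of 44, 45.5%) and DNA replication genes (4 of 9) were near the share of all divergent genes. The others of these lists had summits in 4 of 22 (18.2%), 3 of 44 (6.82%) and 0 of 7 cases. At their divergent pairs the summit was nearest a listed gene in 7 of 14, 15 of 23 and 4 of 5 peaks. The highest peaks at divergent pairs of these lists were Hat1/Rpn5 (863), TppII/ND-MWFE (883), ND-ASHI/Fum1 (857) and RPA1/Mcm2 (684). The lists of receptors and cuticle proteins had no occupied gene. Of 119 odorant and gustatory receptor genes 16 were in divergent pairs, of 70 cuticle genes 4, and 0 of the 16 and 0 of the 4, and 0 of the 103 and 0 of the 66 others, had a summit in the optimal list. No replicate list had a summit at the divergent ones. The pair Idua/Gr32a had a member peak with a signal of 282, 196 bp from Idua and 757 bp from Gr32a, beyond the 500 bp limit for the receptor gene. In all, 8 of the 13 lists had a higher occupied share of divergent genes than the 48.4% of all divergent genes, and 5 had a lower one.

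In 18 pairs both genes were on a list, and 10 of them had a summit, near the 48.9% over all head-to-head pairs. They included Dref/RpL13, at the gene of the DRE-binding factor and a ribosomal protein gene 84 bp away, and su(Hw)/Polr2I, at the genes of an insulator protein and an RNA polymerase II subunit 500 bp apart, both occupied in 3 of 3 replicates. Cog3/Sec5, Sec3/COX7B, Exo84/Vps2, ATPsynCF6/Sec13 and eIF2Balpha/Vps13B were also occupied in 3 of 3 replicates, and Vps39/eIF1A in 2. No optimal summit was found at Taf10b/Taf10 (gap 45 bp), Ibf2/Ibf1, which encode insulator cofactors (463 bp), mRpL39/Prosbeta2 (285 bp), mRpL55/ATPsynD (95 bp), Gr58b/Gr58a, Gr59e/Gr59f or Cpr60D/ND-19, in any replicate either, or at TrpRS/Vps16A, which had one in 1 replicate.

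Occupied shares differed moderately between chromosome arms. They were 55.9% of 683 pairs on 3R (interval 52.1 to 59.7), 51.5% on 3L, 47% on 2L, 44.4% on X and 43.6% on 2R, with replicate means from 42.7% ± 1.14 on X to 55.6% ± 3.82 on 3R. On chromosome 4, with 11 pairs, 1 was occupied (9.09%, interval 0.23 to 41.3).

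Median signal was alike on both sides of the gap limit of the rule and higher just beyond its distance limit. Members with gaps of 900 to 1000 bp (n = 36) had a median signal of 260, and peaks just beyond, with gaps of 1000 to 1100 bp (n = 28), 257. The 7 members with summits 450 to 500 bp from the start had a median of 237, and the 14 peaks at 500 to 550 bp 283. These groups are too small to tell whether signal changes at that limit. The shortest gaps, of 8 bp, belonged to SerRS/CG17260 and CG9588/Lkb1 (signal 225), and the longest to hts/CalpA (999 bp, 266) and CG32767/CG15465 (991 bp, 238).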

How the data were processed

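The labels describe 3 immunoprecipitated libraries (biological replicates 1, 2 and 4) whose chromatin was sheared by sonication to a size range of 200 to 800 bp. For the dm6 build, the files the authors deposited are relaxed lists (1 for each replicate and 1 for the pooled libraries, with 30000 regions each, background included) and an optimal list of 5862 peaks, per the labels. The signal column was deposited by the authors as their peak caller gave it. The caller, the aligner and the scale of the signal are not given in the sources used here, so the signal was compared within a list only, and the depth is unknown. The dm3 lists and the columns of p-values and q-values were not used.

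Starts were those of Ensembl BDGP6.54 release 115 on 7 chromosomes, without transposable elements, and sequences came from RefSeq Release 6. From each replicate's list the 5862 regions with the highest signal were taken. A pair took the shortest gap between its genes' qualifying starts, and a peak with several pairs was described by the start nearest its summit. Overlap meant at least 1 bp. Both strands of the 50 bp on each side of a summit were searched for words. Named members are the 25 of highest signal, up to 3 per gene list, the ends of the gap range and the peak with most pairs. The peaks, gene lists and words were chosen with earlier results of these data known. RpL34a/Trmt61 and the pairs with both genes on a list were named after their values were seen. Procedures were tested on simulated summits and words with known places. Calculations used Python, numpy, scipy and pandas in versions 3.11.15, 2.4.6, 1.17.1 and 2.3.3. Alternatives were the upper 2931 peaks, a 250 bp distance, a 500 bp gap, annotated gene 5′ ends only, a 25 bp window, other overlaps, no peaks at the CG13775 locus, leaving out each replicate and, added after seeing the data, summits 1 to 150 bp upstream of a start.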

Additional observations from a re-analysis of the deposited data

How the results depend on the processing

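Of 120 recomputed values, 106 kept their direction or moved by less than the spread between replicates. These values include the means that leave out 1 replicate, and a kept direction can go with a much smaller difference. The GGTCACAC difference was 0.0581 points among the upper 2931 peaks, against 1.05 over all summits. For CGATA it was 1.13 points among summits 1 to 150 bp upstream, against 8.47 over all summits. The share of divergent summits between the starts was 84.1% among the upper 2931 peaks of the optimal list, 77.1% with gaps of at most 500 bp and 76.8% with annotated gene 5′ ends only. The share overlapped in every replicate was 71.8% for divergent and 66.5% for unidirectional peaks when 50% of the peak had to overlap, and 98% and 96.8% against all regions of the relaxed lists. Differences in word shares (divergent minus unidirectional, percentage points) changed sign for CAGCTG (-0.206 with 25 bp windows, -2.26 among summits 1 to 150 bp upstream), CCAAT (0.154 and 2.46 in the same settings) and TGACGTCA (-0.0594, -0.314, and -0.134 among the upper 2931 peaks). The cause was not tested. The DRE difference was 1.07 points among summits 1 to 150 bp upstream, against 3.43 over all summits. With the gap limited to 500 bp, 53.9% of divergent and 15.8% of unidirectional genes had a summit, and with the upper 2931 peaks 32.1% and 7.51%. In those 2931 the median percentiles of divergent and unidirectional peaks were 56.8 and 55.9. Leaving out each replicate changed no direction, which was fixed in advance wherever all 3 replicates had the same sign. All libraries belong to 1 group, so no replicate block between groups exists, and peak classes were compared within each replicate list.

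The lists give no reads, input or untagged library, so depth and background at promoters were not measured. With 3 replicates, the exact permutation test cannot go below p = 0.25. Paired starts come from annotation, and genes at alternative starts in embryos are counted alike.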
